A study of Acipenser ruthenus with 35 samples.

Results

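The transcripts examined here had normalized levels that varied only within set limits from pole to pole of sterlet oocytes. They are the 150 whose level was highest in big relative to small oocytes. They were selected from 49027 assembled transcripts. Each oocyte had been cut into 5 sections, lettered A at the animal to E at the vegetal extreme. In the normalized signal every section of a selected transcript held between 15 and 25% of its 5-section sum. This held on average over oocytes 1, 2 and 3 (big) and over oocytes 5, 6 and 8 (small). That signal scales the section libraries to each other, and the authors state that their normalization took out most animal transcripts. An even share is therefore relative to the other RNAs of a section, not an equal amount of RNA. The 5-section sum had to reach 20 (small stage) and 200 (big stage) on that same scale, and 8928 transcripts met both conditions. These were ranked by the ratio of the mean total in big to the mean total in small oocytes, and the 150 highest were kept. A total is the CPM (counts of a transcript scaled to a fixed library total) summed over the sections of an oocyte. It is relative to the other RNAs of the oocyte and is not an amount of RNA per oocyte. If the abundance limits were instead read as limits on summed CPM, 38 of the 150 were chosen again.

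The animals were untreated females of the sterlet, Acipenser ruthenus, and the labels name 35 section libraries. The 17 libraries of big (advanced vitellogenic) oocytes came from oocytes 1, 2 and 3, with diameters of 2100, 1920 and 2010 µm and all sections sequenced, and from oocyte 11, with sections A and B. The 18 libraries of small (early vitellogenic) oocytes came from oocytes 5, 6 and 8, with diameters of 1320, 1380 and 1500 µm and all sections, and from oocyte 7, with sections C, D and E. All big oocytes were taken from a single female and all small ones from another, and the methods of the study give a larger RNA input to the big libraries, so stage, female and input cannot be told apart, and p-values measure the spread between oocytes of 1 fish.

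During vitellogenesis an oocyte takes up yolk and grows, while it stores maternal RNA and protein for the embryo, which depends on them until its own genome is switched on. Some of these RNAs are carried to the animal or the vegetal pole and some are spread through the ooplasm. In fish and frogs, vegetal RNAs of the germ plasm are among the best known of the first kind. Evenly spread RNAs are here those whose mean section shares of the normalized signal stayed within the limits given above in both stages. Such limits still allow the share to differ between the poles. Apart from a few markers whose identifiers appear in the study's list of primers, none of them among the 150, the identifiers of the assembly are not paired with gene names in the sources used here. The 150 are therefore described by rank and level, and what their products do is not stated.

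The libraries held 1816470 to 11348306 estimated counts in big and 1653598 to 6817459 in small oocytes. Transcripts detected ranged from 35141 to 44333 per big library and from 35798 to 41909 per small library. The germ line marker dnd1, identified through that list of primers and whose product is required by germ cells of fish, was found in every library, at 22.3 to 736 CPM in big and 86.8 to 243 CPM in small oocytes, while no identifier is paired with a marker of follicle or blood cells, so these could not be checked. In section A of oocyte 11 the 10 most abundant transcripts took 10.2% of the counts. The sections of oocyte 11 entered neither the choice of the 150 nor the tests on totals.

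The ratio of big to small total, by which the transcripts were ranked, was 7.95 for the first, 5.37 for the second, 2.07 at the median and 1.75 for the last of the 150. It reached 4 in 8 transcripts, 3 in 22 and 2 in 81. The first transcript left out had a ratio of 1.74, so the end of the list falls on a continuous slope rather than in a gap. The nearest strong riser outside the share window had a ratio of 1.88 with section shares between 14.986 and 24.3%. Within the list the shares ran from 15.06 to 24.98% in big and from 15.03 to 24.94% in small oocytes.

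**Figure D1:**
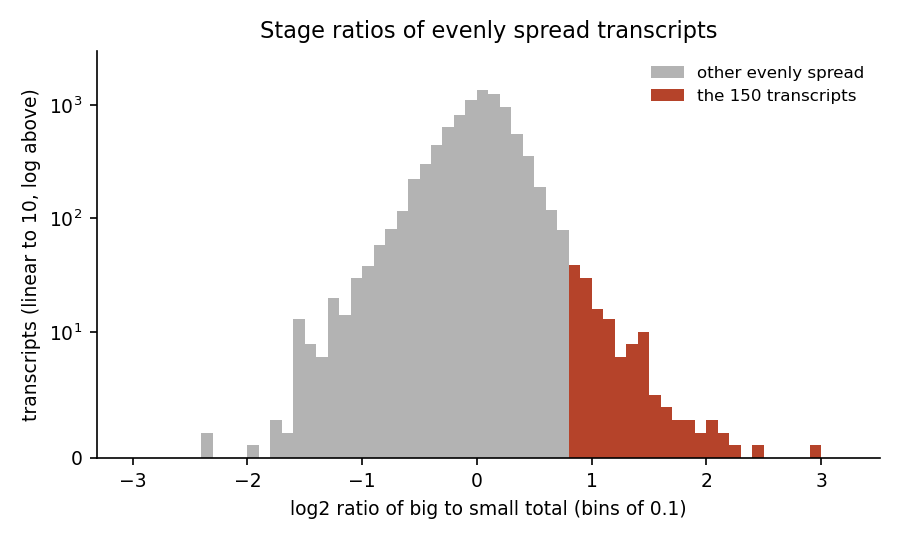
The x axis gives the log2 ratio of big to small total in bins of 0.1, and the y axis the number of evenly spread transcripts (linear to 10, logarithmic above). The 150 (red) form the far right tail, from a ratio of 1.75 upwards, of 8928 transcripts whose other members (grey) centre near a log2 ratio of 0.

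Summed over the 150, the total of an oocyte was 23981 CPM in oocyte 1, 23218 in oocyte 2 and 24030 in oocyte 3. It was 11160 CPM in oocyte 5, 11310 in oocyte 6 and 11156 in oocyte 8. The groups did not overlap, and the means were 23743 ± 455 CPM in big and 11209 ± 87.9 CPM in small oocytes (SD, n = 3 each), a ratio of 2.12 that the choice of the transcripts fixes in its direction. Within a stage the largest oocyte did not stand out: the summed total of the 1500 µm oocyte 8 was close to that of the 1320 µm oocyte 5. Scaling to CPM removes differences in RNA content, so these totals cannot show whether amounts depend on oocyte size. The total of the median transcript was 106, 103 and 103 CPM in big oocytes 1, 2 and 3 and 46.4, 49.2 and 47.4 CPM in small oocytes 5, 6 and 8.

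Individual means ran from 39.0 to 1586 CPM in big and from 9.54 to 848 CPM in small oocytes. None of the 150 was among the 100 most abundant of the 49027 transcripts by mean total, and the best placed ranked 483. CPM is not corrected for transcript length, which is not given in the sources used here, so these ranks order counts and not molecules. The totals of the list varied more between oocytes than those of other evenly spread transcripts. The median SD of the log2 total was 0.11 (big) and 0.13 (small), where the latter had 0.07 and 0.06. The list was also less abundant, with a median total of 46.6 CPM in small oocytes, against 170 CPM in the other evenly spread transcripts. In big oocytes the gap was smaller, 106.5 against 166.6 CPM. Ranking by the ratio of big to small total itself favours low totals in small oocytes. The part of abundance in this spread was not tested.

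Depth bounds what can be said of the lower members. A transcript of the list had a median of 37 counts in a small library and of 116 in a big library, and the lowest value in either stage was 1 count. No member was at 0 in any library. Over the small libraries together the counts of a transcript ran from 126 to 12768.

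**Figure D2:**
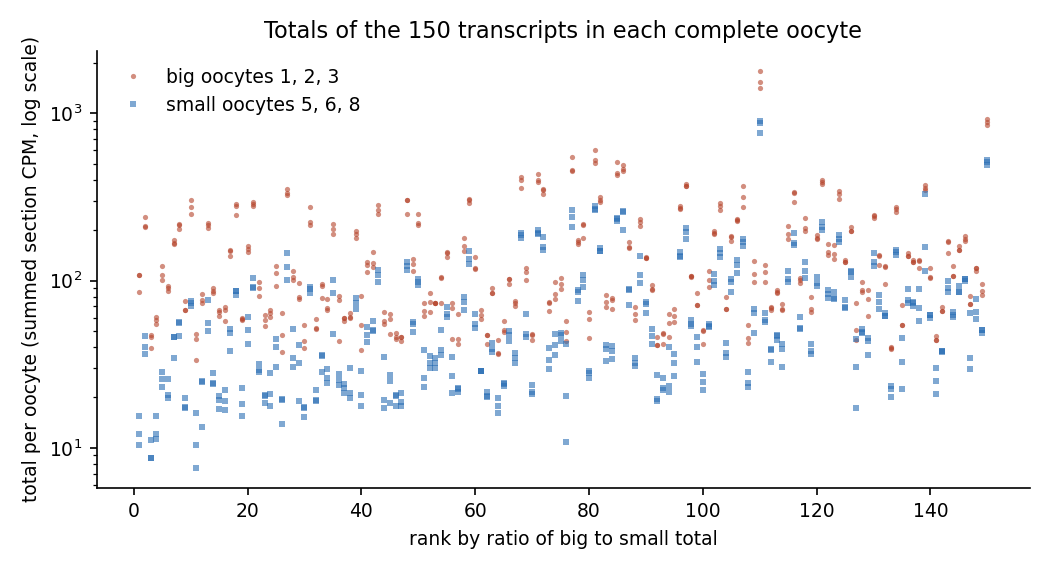
Each column is 1 of the 150 transcripts, ordered on the x axis by its ratio of big to small total, and the y axis gives its total in each complete oocyte in summed CPM on a log scale. Red points are big oocytes 1, 2 and 3 and blue squares small oocytes 5, 6 and 8, and the blue squares lie below all red points in 149 of the 150 columns, as they would for 35.9% of the 16123 transcripts that met the abundance limits.

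The transcript of the highest ratio, TRINITY_DN53240_c0_g1_i1_1, had totals of 108, 107 and 85.6 CPM in big oocytes 1, 2 and 3 and of 10.4, 12.02 and 15.5 CPM in small oocytes 5, 6 and 8. Its lowest, median and highest library values were 12.6, 20.8 and 31.0 CPM in big oocytes and 0.894, 2.35 and 5.65 CPM in small ones, so no small library reached the level of any big library. Toward the vegetal pole its mean level in big oocytes was lower, from 22.8 ± 5.10 CPM in section A and 25.7 ± 4.48 in section B to 16.4 ± 4.02 in section D and 14.9 ± 3.65 in section E (SD, n = 4 in A and B and 3 in D and E, oocytes 11 and 7 included here). In small oocytes it lay between 1.79 ± 0.75 CPM in section D and 3.17 ± 2.21 CPM in section A, and the SD between oocytes in section A exceeded the steps between sections. The smallest count in a small library was 4. In the edgeR quasi-likelihood fit of the totals its log2 difference was 2.99 ± 0.15 (SE, adjusted p = 3.21e-08), a value that describes the choice and does not test it.

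The transcript of the second rank, TRINITY_DN48296_c0_g1_i1_1, had totals of 239, 209 and 212 CPM in big oocytes 1, 2 and 3 and of 36.2, 39.8 and 46.8 CPM in small oocytes 5, 6 and 8. Over libraries its level was 34.4 CPM at the lowest, 44.4 at the median and 54.0 at the highest in big oocytes, and 5.00, 8.31 and 10.9 CPM in small ones, again without overlap. It was flatter than the first: section means ran from 36.8 ± 3.56 CPM in section E to 49.6 ± 4.12 CPM in section B of big oocytes, and from 7.44 ± 0.97 CPM in section C to 9.19 ± 1.504 CPM in section B of small oocytes (SD, n = 3 or 4). Its fitted log2 difference of totals was 2.43 ± 0.09 (SE, edgeR adjusted p = 2.90e-09), which likewise describes the choice and does not test it. The next 6 transcripts, chosen by the same ratio, had ratios of 4.63, 4.46, 4.29, 4.06, 4.02 and 4.01, and no small oocyte reached a big one in any of them.

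For 149 of the 150, every big oocyte had a higher total than every small one, beside 35.9% of the 16123 transcripts that met the abundance limits (5783). In the edgeR fit of all 33209 transcripts with enough counts, 28.9% were called higher and 28.6% lower in big oocytes at an adjusted p of 0.1, with a median log2 difference of 0.00. By the same fit 147 of the 150 were called higher and 0 lower, and the median log2 difference was 1.06, the smallest being 0.81. Both counts restate the choice, since the ratio of CPM totals of the same oocytes selected the transcripts. The 3 not called were those of ranks 76, 127 and 139, with edgeR adjusted p of 0.128, 0.122 and 0.190. Each of them differed widely among small oocytes: the transcript of rank 139 had totals of 159, 331 and 114 CPM in oocytes 5, 6 and 8, against 374, 358 and 346 CPM in oocytes 1, 2 and 3.

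Sections were then compared between stages one at a time. The share of all counts of a library that fell on the 150 was 0.395 to 0.532% in big and 0.207 to 0.236% in small oocytes. In big oocytes this share was lowest at the poles, 0.411 to 0.465% in section A and 0.395 to 0.427% in section E, and highest in the middle, 0.501 to 0.532% in section C. In small oocytes it was almost level along the axis, from 0.207 to 0.221% in section E to 0.225 to 0.236% in section B.

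**Figure D3:**
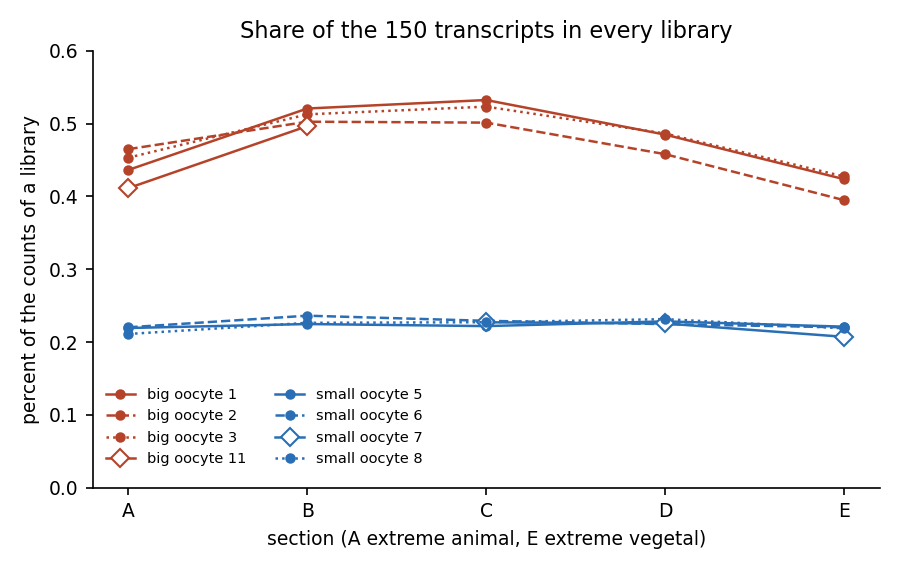
The x axis gives the section, with A at the animal and E at the vegetal extreme, and the y axis the percent of the counts of a library that fell on the 150 transcripts. Each line is an oocyte, red for big and blue for small, open diamonds mark oocytes 11 and 7, which were not used in the choice, and all big libraries lie between 0.395 and 0.532% above all small ones.

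In every section all 150 had a higher mean CPM in big than in small oocytes. The ratio of totals and the share window of the choice together all but fix this. It and the section medians that follow therefore describe the choice and do not test it. The median log2 difference was 0.98 in section A, 1.13 in B, 1.17 in C, 1.08 in D and 0.96 in E, whereas over all transcripts that met the abundance limits it lay between -0.10 and 0.07. Of the lower values at the poles, that of section E depended on the scaling. With median-of-ratios factors in place of library totals the medians were 1.00, 1.10, 1.15, 1.17 and 1.11. Section E then no longer stood below B, while section A was still the lowest.

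With oocytes 11 and 7 included, the libraries did not overlap between stages, big above small, for 130 of the 150 in section A (19.5% of the 16123 did not overlap in that direction), 141 in B (24.9%), 146 in C (24.6%), 144 in D (22.8%) and 132 in E (20.1%). Thus in 114 transcripts the stages were apart in all 5 sections, beside 3.26% of the 16123. In 145 they were apart in at least 3 sections, beside 17.1%. Most of these libraries entered the choice, so these counts describe the choice and do not test it. By CPM, the section with the largest stage ratio was A in 15, B in 40, C in 55, D in 25 and E in 15. These counts were not set beside those of all transcripts, whose CPM medians were also highest in B and C and lowest in E. With median-of-ratios factors the highest median of the 150 moved from section C to D (1.17). For the median transcript the log2 stage ratio of its sections spanned 0.53. With the complete oocytes alone, a comparison added after seeing the data, the median log2 difference was 1.04 in section A, 1.16 in B, 1.16 in C, 1.06 in D and 0.94 in E, and 142 of the 150 did not overlap in section A (26.6% of the 16123).

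Evenness was a criterion of the choice, so the shares are given as a description. In big oocytes the median share of the 150 was 18.6% in section A, 19.96% in B, 20.6% in C, 20.5% in D and 19.5% in E. Section A was the lowest section of 70 transcripts and E of 45, and the highest section was most often D (39) or C (36). Among the other evenly spread transcripts the highest section of big oocytes was A in 17.2%, B in 28.2%, C in 21.9%, D in 17.1% and E in 15.5%. In small oocytes the median shares ran only from 19.9 to 20.2%, and the highest section was A in 41, D in 33, B in 26, C in 25 and E in 25. For the other evenly spread transcripts it was A in 26.0%, B in 14.4%, C in 27.9%, D in 17.5% and E in 14.1%. The highest section was the same in both stages for 27 of the 150, a count not set beside that of other transcripts. The median range between the highest and the lowest share was 5.39 percentage points (big) and 4.54 (small), compared with 5.06 and 3.46 in the 8778 other evenly spread transcripts. A share varied between oocytes with a median SD of 1.57 points in big and 2.52 in small oocytes. Beside the ranges of 5.39 and 4.54 points, this spread was larger in small than in big oocytes.

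The share window does not mean that the sections of a transcript were equal. The edgeR F test compared sections within each stage, with all libraries of that stage in use and the oocyte as a block. In big oocytes sections differed in 75 of the 150 (50%), beside 55.3% of all transcripts tested. Of the other evenly spread transcripts 53.5% were called. The count of 75 fell to 51 without oocyte 1, 55 without oocyte 2 and 29 without oocyte 3, and was 74 without oocyte 11. The share of all transcripts called in these refits was not set beside them. In small oocytes 1 of the 150 (0.667%) was called, the transcript of rank 27 (edgeR adjusted p = 0.00457), beside 14.7% of all and 7.11% of the other evenly spread transcripts. It was singled out after its values were seen, and its totals were 324, 353 and 333 CPM in big oocytes 1, 2 and 3 and 121, 100.2 and 145 CPM in small oocytes 5, 6 and 8. The lower counts of the list in small libraries accompany this smaller number, and their part in it was not tested.

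Whether the distribution over sections changed with stage was tested as an interaction over all 35 libraries, without the oocyte as a block. It was called in 15 of the 150 (10%), beside 29% of all transcripts tested and 19.7% of the other evenly spread ones. This count was 21 with the oocyte as a block. It fell to 7 without oocyte 1, 5 without oocyte 3, 6 without oocyte 5 and 9 without oocyte 6. It was 12 without oocyte 11 and 16 without oocyte 8. These refits, too, were not set beside the share of all transcripts called. For 73 of the 150 none of the 3 tests passed. The window capped the shares in both stages and most of these libraries entered it, so the counts describe the choice. Of the leading pair, the first was called in big oocytes (edgeR adjusted p = 0.0645) but neither in small ones (0.767) nor for the interaction (0.881), and the second passed none of the tests (0.460, 0.912 and 0.596).

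Oocytes 11 and 7 are incomplete and took no part in the choice, so they offer a measure of the same stage difference in other cells of the same fish. The mean CPM of the sections A and B of oocyte 11 was set over the mean of the sections C, D and E of oocyte 7. Of the 150, 148 (98.7%) were higher in oocyte 11, beside 54.3% of the 16123 and 56.5% of the other evenly spread transcripts. The median log2 ratio was 1.04 (quartiles 0.76 and 1.45), a 2.06-fold difference, against 0.05 (quartiles -0.27 and 0.33) over the 16123. The ratio was at least 1.5 in 133 and at least that of the last chosen transcript, 1.75, in 108.

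With 1 oocyte on each side there is no replicate of this ratio and no test was made. The sections also differ between the oocytes. In the complete oocytes the ratio of sections A and B of big to C, D and E of small oocytes had a median log2 of 1.10 for the 150 and of 0.08 for all, and the 9 pairs of a big with a small oocyte gave medians from 1.05 to 1.17. The value of 1.04 from the unused oocytes thus lay just under that range. When section A of oocyte 11 was left out it was 1.21, within the 1.16 to 1.27 that section B alone of the big oocytes gave over the same pairs.

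**Figure D4:**
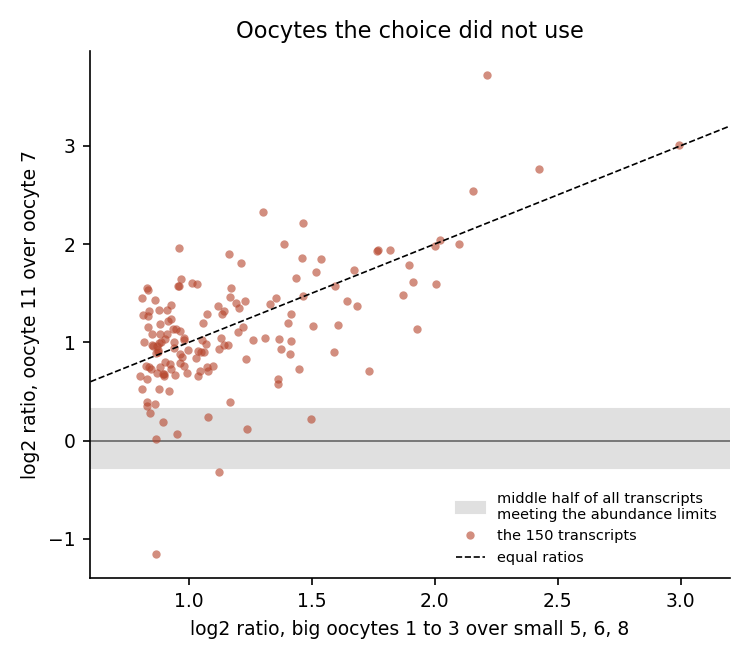
Each point is 1 of the 150 transcripts, with the log2 ratio of big to small total in the complete oocytes on the x axis and the log2 ratio of mean CPM in oocyte 11 to oocyte 7 on the y axis. The dashed line marks equal values and the grey band the quartiles (-0.27 and 0.33) of all transcripts that met the abundance limits, and 148 points lie above 0.

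Library by library, section A of oocyte 11 lay above every small library of section A for 135 of the 150, beside 31.6% of the 16123, and section B for 144, beside 40.1%. Section C of oocyte 7 lay below every big library of that section for 149 (42.8% of the 16123), section D for 147 (37.3%) and section E for 142 (36.9%). Against their own stage the position of these libraries varied. Section A of oocyte 11 fell inside the range of oocytes 1, 2 and 3 for 43 transcripts, above it for 27 and below it for 80, and its median log2 difference from their mean was -0.19, where all transcripts gave -0.14. Section C of oocyte 7 was inside the range of its stage for 81, with a median difference of 0.00. The counts inside were 56 for section B of oocyte 11, and 70 and 60 for sections D and E of oocyte 7. A range of 3 oocytes is narrow, and these counts were not set beside those of all transcripts.

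The leading transcripts were also far higher in oocyte 11. TRINITY_DN53240_c0_g1_i1_1 stood at 24.3 CPM in oocyte 11 and 3.02 CPM in oocyte 7, an 8.05-fold difference. TRINITY_DN48296_c0_g1_i1_1 stood at 52.9 and 7.80 CPM, a 6.78-fold difference. The ratios of totals in the complete oocytes were 7.95 and 5.37. Those totals cover sections A to E, whereas oocyte 11 gave only A and B and oocyte 7 only C, D and E. In big oocytes TRINITY_DN53240_c0_g1_i1_1 had higher means in sections A and B than in D and E. Because the sections are not matched, these values cannot show whether the difference was larger in the unused oocytes.

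Of the 150, the lowest value in the unused oocytes belonged to TRINITY_DN42707_c0_g3_i3_1, of rank 127, at 2.40 CPM in oocyte 11 and 5.33 CPM in oocyte 7 (log2 ratio -1.15). The libraries of oocyte 11 held 1 and 17 counts of it. It is also the transcript whose totals overlapped between stages, with 44.4, 73.3 and 50.6 CPM in big oocytes 1, 2 and 3 and 44.6, 17.2 and 30.3 CPM in small oocytes 5, 6 and 8, and it was not called in the totals (edgeR adjusted p = 0.122). TRINITY_DN50659_c0_g2_i1_1, of rank 64, was at 4.45 CPM in oocyte 11 and 5.55 CPM in oocyte 7 (log2 ratio -0.32), and in the latter its section E alone gave 9.07 CPM from 15 counts. Its totals in the complete oocytes were 43.9, 36.8 and 36.3 CPM in big and 17.8, 16.2 and 19.8 CPM in small ones, without overlap.

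Even transcripts were a minority of those that were this much higher in big oocytes. Of the transcripts that met the abundance limits, 762 had a ratio of at least that of rank 150, and 150 of these (19.7%) met the share window, beside 55.4% of all 16123. These groups were not matched for abundance, and the part of counting noise in the shares was not tested. Of the other 612, the section with the highest share in big oocytes was E in 480, A in 64, D in 26, B in 22 and C in 20, and 173 of them were even in small oocytes alone and 53 in big oocytes alone. Evenly spread transcripts with the inverse ratio or lower numbered 195 under the same limits and 273 with the limits of the stages exchanged, so the list has a counterpart on the other side.

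The 150 belonged to 150 different assembly genes and 150 different assembly components, the groups in which the assembler places contigs that share sequence. At the level above, the leading number of the identifier, there were 149, because the transcripts of ranks 67 and 73 share it. These were noticed after their values were seen, and had totals of 70.01, 75.4 and 73.5 CPM and of 74.6, 66.1 and 73.1 CPM in big oocytes 1, 2 and 3, with ratios of 2.11 and 2.08. Of the 150, 120 (80%) were assembled de novo and 30 with the guidance of a genome, near the 78.1% de novo among the other evenly spread transcripts. Over the whole assembly that percentage was 63.4 (31093 of 49027).

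For 8 of the 150 the assembly gene held a further contig, called a sister here, which the choice had not taken. The assembler separates contigs of a gene when they differ in sequence, as splice forms or alleles do, and kallisto divides reads from their common stretches by estimate, so the level of each is less certain than their sum. In the edgeR fit of the totals 4 sisters were called higher and 2 lower in big oocytes (28.9 and 28.6% of all transcripts were), and the median log2 difference of the 8 was 0.16. Of the 8 sisters, 5 met both the share window and the abundance limits of the choice. Those that did not had mean totals of 29.1, 18.1 and 5.07 CPM in big oocytes. These lie below 36.3 CPM, the lowest among transcripts that met the abundance limits, so this does not show that their sections were uneven. The sum of transcript and sister had a ratio of big to small of 0.718 to 2.93, with a median of 1.55, and 3 of the 8 sums reached the ratio of rank 150.

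**Figure D5:**
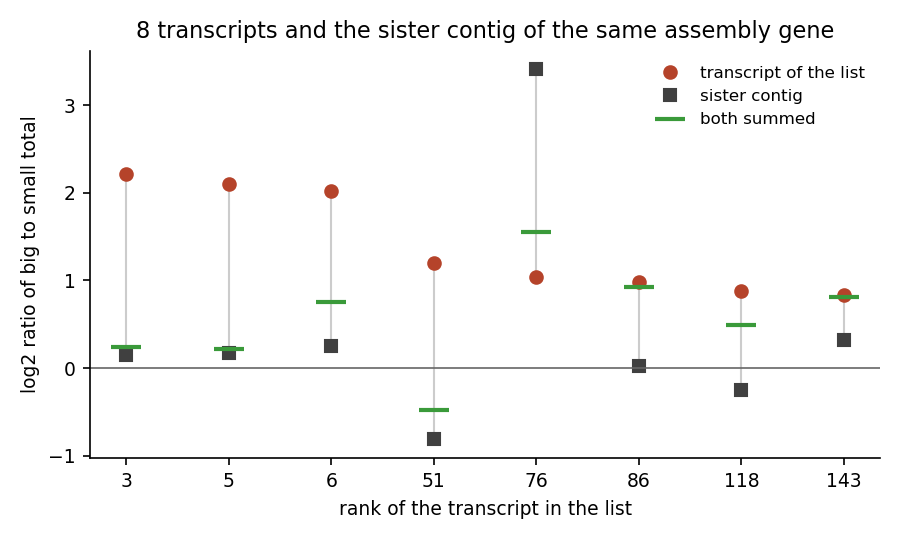
For the 8 transcripts with a sister contig, placed on the x axis by rank, the y axis gives the log2 ratio of big to small total of the transcript (red), of the sister (grey square) and of both summed (green bar). The sums lie close to the sister at ranks 3 and 5, and below 0 at rank 51, where the summed ratio was 0.718.

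Of the 8 transcripts with a ratio of 4 or more, 3 had a sister, at ranks 3, 5 and 6. Their own ratios were 4.63, 4.29 and 4.06, those of the sisters 1.11, 1.13 and 1.19, and those of the sums 1.18, 1.16 and 1.68. At rank 3 the transcript made up 2.04% of the summed CPM of the pair in small and 8.03% in big oocytes, and at rank 5 it made up 1.17 and 4.32%. At rank 6 it made up 17.2 and 41.4%. In these assembly genes the sum therefore moved far less than the contig that was selected.

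The largest rise of a sister was that of TRINITY_DN47692_c0_g2_i2_1, with totals of 25.4, 29.0 and 33.0 CPM in big oocytes 1, 2 and 3 and 0.508, 5.90 and 1.81 CPM in small oocytes 5, 6 and 8. Its log2 difference was 3.43 ± 0.49 (SE, edgeR adjusted p = 0.00115, and 2.68e-06 to 0.00646 over the alternatives). Its size rested on the low values of the small oocytes: the log2 difference was 2.93 without oocyte 5 and 4.67 without oocyte 6. The selected transcript of that assembly gene, of rank 76, had totals of 57.6, 49.6 and 43.2 CPM in big and 20.4, 41.7 and 10.9 CPM in small oocytes, so here both contigs were higher in big oocytes and oocyte 6 was the highest small oocyte in both. The other named rise was smaller: TRINITY_DN53067_c0_g1_i3_1, the sister of the transcript of rank 6, was at 127 ± 4.09 CPM in big and 107 ± 9.66 CPM in small oocytes (SD, n = 3), a log2 difference of 0.25 ± 0.08 (SE, edgeR adjusted p = 0.0201, and 0.0154 to 0.0991 over the alternatives).

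The largest fall was that of TRINITY_DN50346_c1_g4_i2_1, with totals of 166, 176 and 185 CPM in big oocytes 1, 2 and 3 and 290, 321 and 316 CPM in small oocytes 5, 6 and 8 (log2 difference -0.81 ± 0.06, SE, edgeR adjusted p = 5.81e-07, and 2.35e-20 to 2.33e-05 over the alternatives). The selected transcript of rank 51 moved the other way, from 26.1, 22.98 and 38.3 CPM in small to 65.6, 61.7 and 73.8 CPM in big oocytes, a ratio of 2.30. TRINITY_DN50366_c0_g2_i1_1, the sister at rank 118, was at 85.4, 59.9 and 78.4 CPM in big and 87.7, 89.4 and 88.1 CPM in small oocytes (log2 difference -0.24 ± 0.11, SE, edgeR adjusted p = 0.0969, and 0.01997 to 0.372 over the alternatives). This call did not hold without oocyte 2, 3, 5, 6 or 8, each of which left 1 sister called lower. Oocyte 2 was the lowest of the 6 in this sister, and the small oocytes differed from each other by less than the big ones.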

How the data were processed

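The study sequenced rRNA-depleted libraries of oocyte sections (TOMO-Seq). According to the labels and methods, the authors trimmed reads with Trimmomatic and assigned them with kallisto 0.43.1 to an assembled transcriptome, and deposited estimated counts per transcript, which here are whole numbers (100.0% within 1e-06). A further pair of tables, 1 per stage, holds the normalized signal that the authors obtained with DESeq2 size factors. That signal gave the section shares and the abundance limits of the choice.

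CPM was computed from the counts and summed over sections. For the fits, the totals of the 6 complete oocytes were section counts divided by median-of-ratios factors, summed and rounded, not summed CPM. They were compared in R 4.3.3 by quasi-likelihood in edgeR 4.0.16, with median-of-ratios factors and Benjamini-Hochberg adjustment at 0.1. Transcripts needed a total above 20 on that scale. Section differences used an F test within each stage with the oocyte as a block, and the interaction was fitted without it. Fits covered all transcripts tested and were tested on simulated data. Sections of an oocyte are parts of 1 cell, so its number pairs them. Their deviations from the group means correlated at 0.187 (big) and 0.121 (small) on average, and those of different oocytes and sections at -0.069 and -0.042. Alternatives were TMM factors, library totals, DESeq2 1.42.0, other filters, other share windows and leaving out each oocyte.

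Named are the 2 transcripts of the highest ratio, the 2 lowest in the unused oocytes, and the 2 sisters with the largest called rise and fall. The 150 transcripts and all lists were chosen with earlier results of these data known. None (0) of the identifiers matched the 80041 genes of the RefSeq table, and no sequence is printed.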

Additional observations from a re-analysis of the deposited data

Results flagged for a closer look

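Values of 4 libraries of a section and stage were checked for a library far from the others in 20 sets, and 3 sets held one beyond the 95% critical value of Dixon's ratio, where chance alone gives about 1 in 20 sets. The 10 most abundant transcripts held 10.2% of the counts in section A of big oocyte 11, against 3.04 to 4.19% in that section of the other big oocytes. In section E of small oocyte 7 the 150 transcripts held 0.207% of the counts, against 0.219 to 0.221% in the other small oocytes. In the same library TRINITY_DN53240_c0_g1_i1_1 stood at 5.44 CPM from 9 counts, against 1.73 to 2.31 CPM from 5 to 10 counts. No explanation of these values was tested.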

How the results depend on the processing

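The number of the 150 called higher in the totals stayed between 145 and 149 under all alternatives run, including each oocyte left out (146 to 149). Over all transcripts, a total above 200 on the scale of the fit left 5691 higher and 5157 lower, with fewer transcripts tested. Sisters called lower were 1 under DESeq2, 1 without a filter, 1 with a total above 200 and 1 to 2 with an oocyte left out. With all contigs of the same assembly component, an alternative chosen after seeing the data, 21 of 39 were higher and 8 lower (28.9 and 28.6% of all transcripts were). Section differences in big oocytes were called in 49 of the 150 under DESeq2, 80 with TMM, 104 with scaling by library totals, 29 to 74 with an oocyte left out and 63 with no replicate block, and in small oocytes in 1 with no block. The interaction was called in 8 with TMM, 8 under DESeq2, 8 without a filter, 20 with library totals, 5 to 16 with an oocyte left out and 21 with the oocyte as a block. For these section and interaction counts the share of all transcripts called was not set beside them. They cannot show whether the changes are particular to the 150. The median log2 ratio of oocyte 11 to oocyte 7 was 1.09 as a median over sections and 1.21 without section A of oocyte 11, which was chosen after seeing the data. Of the 150, the choice returned 50 with a share window of 17 to 23%, 75 with 12 to 28%, 38 with the limits read as summed CPM (also added later), 116 to 134 with an oocyte left out and 150 with median-of-ratios totals. The cause of these changes was not tested. With a median of 37 counts and as few as 1 in a small library, the lower transcripts of the list are limited by counting.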

Other observations

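Assembly components, a wider grouping than assembly genes, linked 46 further contigs to 32 of the 150 transcripts, the 8 sisters among them. Of the 39 with enough counts to be tested in the totals, edgeR called 21 higher (53.8%) and 8 lower (20.5%) in big oocytes, beside 28.9 and 28.6% of all transcripts tested, with a median log2 difference of 0.25. This list was drawn up after the data were seen, so it is given as a description.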
